A study of Homo sapiens with 17 samples.

Results

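XBP1 and 9 chaperone or folding genes of the endoplasmic reticulum (ER) were followed in 17 RNA sequencing libraries of MOLM13, an established human cell line of acute myeloid leukaemia with an MLL-AF9 fusion. The 10 genes, named by symbol and matched to their Ensembl identifiers, were XBP1, HSPA5, HSP90B1, DNAJB9, DNAJC3, SDF2L1, HERPUD1, PDIA4, PDIA6 and CALR, out of 58278 gene identifiers in each library. All 10 were found and all 10 passed the filter on low counts in each comparison reported; of the alternatives, a filter at 20 CPM removed DNAJB9 and SDF2L1 from the comparisons within the first experiment and from the differences between effects, and DNAJB9 from that of MEIS1_KO. MOLM13 cells had received CRISPR knockout reagents. In the first experiment 3 libraries came from cells with a HOXA9 knockout (HOXA9_KO), 3 from cells with a SAFB knockout (SAFB_KO) and 3 from cells given a non-targeting guide (NT). In the second, 4 libraries came from cells with a MEIS1 knockout (MEIS1_KO) and 4 from cells with a non-targeting guide of that experiment (NT_MEIS1ex). The homeobox genes HOXA9 and MEIS1 code for transcription factors that MLL fusions keep active, and the SAFB protein, found in the nuclear matrix, binds both DNA and RNA. Guide sequences, the number of clones and the time after editing are not stated in the labels.

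The ER folds secreted and membrane proteins, and unfolded protein in its lumen activates 3 membrane sensors, IRE1 (ERN1), ATF6 and PERK (EIF2AK3). IRE1 splices the XBP1 mRNA so that it codes for an active transcription factor, and spliced XBP1 and cleaved ATF6 raise transcription of chaperones such as HSPA5 and of genes that remove misfolded protein. PERK slows translation and raises ATF4. XBP1 is also known for its role in plasma cells and other secretory cells, and its own gene is a target of the response. A count per gene cannot tell spliced from unspliced XBP1 mRNA, so the values below are of total XBP1 RNA.

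A sequence element of this response, the ER stress response element (ERSE), was looked for in the RefSeq promoters (GRCh38.p14) of the 10 genes, over the 250 bases before each start. ERSE is CCAAT and CCACG parted by 9 bases of any kind and was searched on both strands; 22 of 27305 promoters (0.0806%) held a match, and these included 4 of the 10 genes. XBP1 had its match 52 bases before the start and HSPA5, the gene of the main ER chaperone, had its match 66 bases before the start. Both promoters are shown because the 2 genes moved in opposite directions in HOXA9_KO and SAFB_KO, with the fixed letters of the match in capitals. The XBP1 stretch is chr22:28800598-28800819 and the HSPA5 stretch is chr9:125241344-125241593, both on the minus strand. The XBP1 stretch holds 222 of the 250 bases and stops at the edge of the gene span given below, which reaches past the RefSeq start.
XBP1: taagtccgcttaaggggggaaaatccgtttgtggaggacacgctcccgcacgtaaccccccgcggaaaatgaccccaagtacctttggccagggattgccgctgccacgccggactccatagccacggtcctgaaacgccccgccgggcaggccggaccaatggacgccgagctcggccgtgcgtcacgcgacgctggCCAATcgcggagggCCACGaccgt
HSPA5: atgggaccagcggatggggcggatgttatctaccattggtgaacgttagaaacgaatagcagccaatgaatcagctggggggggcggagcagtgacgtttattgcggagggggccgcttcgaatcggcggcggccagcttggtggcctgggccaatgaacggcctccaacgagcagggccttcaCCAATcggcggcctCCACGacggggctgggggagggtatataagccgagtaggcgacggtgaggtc

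HSP90B1 held a pair of matches, 194 and 89 bases before its RefSeq start, and CALR held one 225 bases before its start. The second HSP90B1 match and the CALR match lie on the opposite strand. Both HSP90B1 matches lie inside the gene span given below, which begins before the RefSeq start. The related ERSE-II, ATTGG and CCACG parted by 1 base of any kind, was in 14 of 27305 promoters (0.0513%), among them SDF2L1, 188 bases before the start on the opposite strand, and HERPUD1, 117 bases before the start. The windows show how the same letters recur in genes whose RNA behaved differently. They lie at chr12:103930211-103930239, chr12:103930316-103930344, chr19:12938379-12938407, chr22:21642109-21642129 and chr16:56932020-56932040, all on the plus strand, with the fixed letters of each match in capitals.
HSP90B1, first match: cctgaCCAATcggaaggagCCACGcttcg
HSP90B1, second match: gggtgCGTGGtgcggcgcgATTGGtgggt
CALR: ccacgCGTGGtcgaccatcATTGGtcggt
SDF2L1: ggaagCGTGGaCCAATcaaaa
HERPUD1: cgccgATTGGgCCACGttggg

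DNAJB9, DNAJC3, PDIA4 and PDIA6 had neither element in this window. The windows of DNAJB9 and PDIA6 lie inside the gene spans given below, so they do not describe the start of those spans. That of PDIA4 crosses the start of its span and lies partly inside it. The core of the XBP1-bound element, TGACG followed by TGG, was in 182 of 27305 promoters (0.667%) and in 0 of the 10. The short parts of ERSE are common, with CCAAT in 33.0% and CCACG in 33.3% of promoters, each in 9 of the 10. A match is a description of these letters and not a bound site.

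The libraries held 23264176 to 67842104 reads assigned to genes, and the 10 genes held between 170 and 52010 reads in any library. Each targeted gene lay lower in every library of its own knockout than in every control library, at 21.1 to 21.9 CPM (counts per 1000000 assigned reads, with TMM scaling) for HOXA9 in HOXA9_KO against 40.1 to 42.0 CPM in NT. SAFB lay at 19.4 to 22.2 CPM in SAFB_KO against 33.6 to 40.9 CPM in NT, and MEIS1 at 10.3 to 12.7 CPM in MEIS1_KO against 31.7 to 33.3 CPM in NT_MEIS1ex. MEIS1 also lay low in HOXA9_KO, at 16.1 to 17.7 CPM against 48.4 to 50.3 CPM in NT. Mitochondrial rRNA genes took 33.9% ± 1.81 of assigned reads in HOXA9_KO, 25.7% ± 1.15 in SAFB_KO and 25.1% ± 3.02 in NT (SD, n = 3 each), but 0.00941% or less in each MEIS1_KO and NT_MEIS1ex library. Levels are therefore compared within an experiment.

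XBP1 (chr22:28794555-28800597, GRCh38, minus strand) was lower in all 3 knockouts, most in HOXA9_KO. It lay at 75.3, 79.9 and 79.0 CPM in HOXA9_KO, at 144.4, 144.0 and 155.4 CPM in SAFB_KO and at 234.2, 238.1 and 235.2 CPM in NT. The 3 groups did not overlap, and the mean level was 33.1% of NT in HOXA9_KO and 62.7% in SAFB_KO. XBP1 fell by 1.59 ± 0.04 (log2 fold change ± SE, adjusted p 1.6e-37) in HOXA9_KO and by 0.67 ± 0.03 (adjusted p 8.2e-22) in SAFB_KO, by edgeR's quasi-likelihood test with Benjamini-Hochberg adjustment over all tested genes. In the MEIS1 experiment it lay at 251.4, 262.2, 255.0 and 282.9 CPM in MEIS1_KO and at 409.5, 350.7, 373.0 and 387.8 CPM in NT_MEIS1ex, again with no overlap. That was 69.1% of the control mean, a fall by 0.53 ± 0.05 (adjusted p 8.5e-06). XBP1 stood at percentile 4.16 of the fold changes of all tested genes in HOXA9_KO, 11.3 in SAFB_KO and 1.49 in MEIS1_KO, counted from the most reduced gene. The SD over libraries was 2.42 CPM in HOXA9_KO, 6.45 in SAFB_KO, 2.03 in NT, 14.1 in MEIS1_KO and 24.7 in NT_MEIS1ex.

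The 3 falls differed in size. HOXA9_KO set directly against SAFB_KO gave −0.92 ± 0.04 (log2 fold change, adjusted p 1.2e-26), with mean XBP1 in HOXA9_KO at 52.8% of that in SAFB_KO. The HOXA9 effect minus the MEIS1 effect, each taken against its own controls in 1 fit of all 17 libraries, was −1.02 ± 0.07 (adjusted p 8.9e-14). The SAFB effect minus the MEIS1 effect was −0.13 ± 0.07 (adjusted p 0.209) and did not pass the test. This last value depends on the setting, since it passed with only genes of at least 2 CPM (−0.20, adjusted p 0.0283) or 20 CPM (−0.24, adjusted p 0.0125), with scaling to protein-coding counts (−0.31, adjusted p 9.2e-04) and without NT_MEIS1ex replicate 1 (−0.17, adjusted p 0.0454). In the first experiment XBP1 averaged 236 CPM in NT, 148 in SAFB_KO and 78.1 in HOXA9_KO. In the MEIS1 experiment it averaged 380 CPM in NT_MEIS1ex and 263 in MEIS1_KO. These CPM values give no order across experiments, which were scaled apart and differ in the share of protein-coding reads. MEIS1_KO and NT were not tested against each other.

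**Figure D1:**
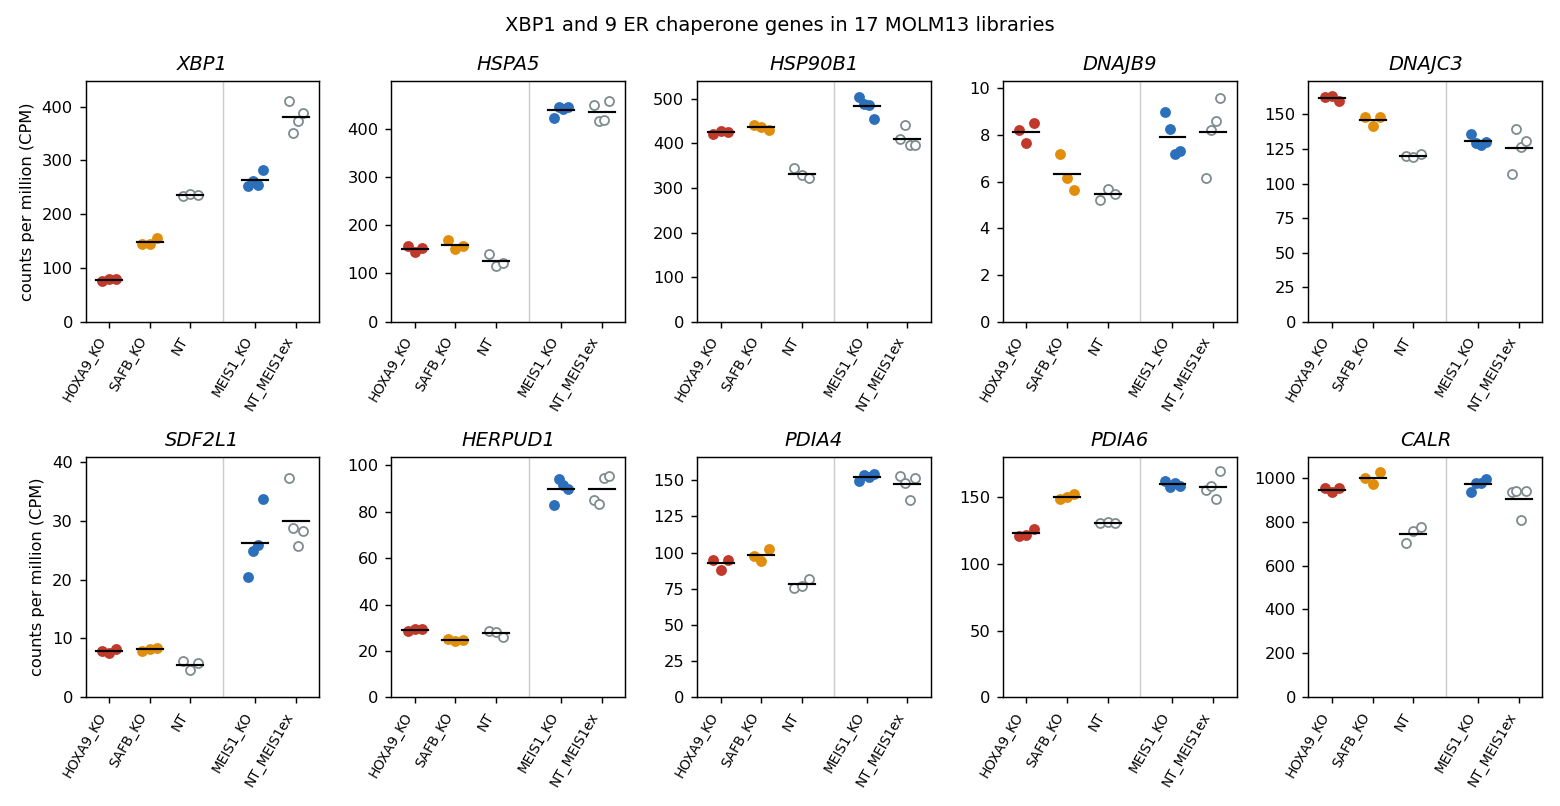
CPM (vertical axis, from 0) of the 10 genes in each of the 17 libraries, with 1 point a library and a bar at the group mean; filled points are knockouts, open points are non-targeting libraries, and a grey line separates the experiments. XBP1 steps down in every knockout relative to the open points of its experiment, while HSPA5 averages 151 CPM in HOXA9_KO and 159 CPM in SAFB_KO against 126 CPM in NT.

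The chaperone genes did not fall with XBP1. In HOXA9_KO, 7 of the 10 genes were higher, 2 were lower (XBP1 and PDIA6) and 1 did not pass, in a comparison where 27.6% of the 18876 tested genes were called higher and 29.9% lower (57.5% either way). In SAFB_KO, 7 were higher, 2 were lower (XBP1 and HERPUD1) and 1 did not pass, beside 20.2% of genes called higher and 15.3% lower (35.5% either way). Without XBP1 the median log2 fold change of the 9 others was 0.34 in HOXA9_KO and 0.33 in SAFB_KO, against a median over all tested genes of −0.07 and −0.02. The largest of the 9 was 0.58 in HOXA9_KO and 0.55 in SAFB_KO, so these were small differences next to that of XBP1. Whether replicate libraries stem from independent cultures or clones is not in the labels, so the spread behind every p-value is that between the deposited libraries and may be technical. In a bulk sample, fewer cells of a kind and less RNA per cell cannot be told apart.

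HSPA5 (chr9:125234853-125241330, minus strand) and HSP90B1 (chr12:103930107-103953645, plus strand) code for the Hsp70 and Hsp90 chaperones of the ER lumen, known as BiP and GRP94. HSPA5 lay at 156.4, 145.4 and 152.2 CPM in HOXA9_KO, at 168.7, 150.8 and 156.8 CPM in SAFB_KO and at 140.4, 114.6 and 121.7 CPM in NT. Every knockout library was above every NT library, but NT replicate 1 lay only 5.0 CPM below the lowest HOXA9_KO library. HSPA5 rose by 0.27 ± 0.08 (adjusted p 0.0205) in HOXA9_KO and by 0.34 ± 0.08 (adjusted p 0.0120) in SAFB_KO. The HOXA9_KO call was lost without NT replicate 3 (adjusted p 0.0818), HOXA9_KO replicate 1 (0.0684) or HOXA9_KO replicate 3 (0.0597), and with filters at 2 CPM (0.21, adjusted p 0.0502) and 20 CPM (0.16, adjusted p 0.0924). The SAFB_KO call was lost without NT replicate 3 (adjusted p 0.0567). HSP90B1 lay at 420.3, 428.5 and 426.5 CPM in HOXA9_KO, at 442.5, 436.4 and 431.3 CPM in SAFB_KO and at 345.6, 328.2 and 322.9 CPM in NT. The NT libraries were all lower than the knockout libraries, and HSP90B1 rose by 0.36 ± 0.03 (adjusted p 2.5e-14) in HOXA9_KO and by 0.39 ± 0.03 (adjusted p 3.3e-15) in SAFB_KO.

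DNAJB9 (chr7:108569568-108574850), DNAJC3 (chr13:95677139-95794989) and SDF2L1 (chr22:21642261-21644298), all on the plus strand, code for partners of BiP, the first 2 being J-domain co-chaperones (ERdj4 and p58IPK). DNAJC3 lay at 162.9, 163.1 and 159.4 CPM in HOXA9_KO, at 148.2, 141.4 and 148.4 CPM in SAFB_KO and at 120.2, 119.5 and 121.2 CPM in NT. The 3 groups were separate, and DNAJC3 rose by 0.43 ± 0.03 (adjusted p 1.4e-15) in HOXA9_KO and by 0.28 ± 0.03 (adjusted p 2.6e-09) in SAFB_KO. DNAJB9, a well known XBP1 target, lay at 8.22, 7.65 and 8.53 CPM in HOXA9_KO, at 7.18, 6.14 and 5.63 CPM in SAFB_KO and at 5.203, 5.68 and 5.47 CPM in NT. It rose by 0.58 ± 0.11 (adjusted p 7.4e-06) in HOXA9_KO, where XBP1 was lowest; in SAFB_KO the groups overlapped and the change was 0.21 ± 0.11 (adjusted p 0.129). SDF2L1 lay at 7.85, 7.46 and 8.16 CPM in HOXA9_KO, at 7.83, 8.18 and 8.46 CPM in SAFB_KO and at 6.18, 4.69 and 5.80 CPM in NT. No knockout library overlapped the NT libraries, and SDF2L1 rose by 0.49 ± 0.11 (adjusted p 1.1e-04) in HOXA9_KO and by 0.55 ± 0.10 (adjusted p 3.3e-05) in SAFB_KO.

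PDIA4 (chr7:149003062-149028641) and PDIA6 (chr2:10783391-10837977), on the minus strand, code for protein disulphide isomerases, and CALR (chr19:12938578-12944489, plus strand) for calreticulin, a calcium-binding chaperone of glycoproteins. CALR lay at 951.3, 933.7 and 952.6 CPM in HOXA9_KO, at 999.1, 973.1 and 1027 CPM in SAFB_KO and at 702.9, 755.7 and 776.2 CPM in NT. It rose by 0.34 ± 0.03 (adjusted p 1.1e-13) in HOXA9_KO and by 0.42 ± 0.03 (adjusted p 4.3e-16) in SAFB_KO, with no overlap. PDIA4 lay at 95.1, 87.8 and 95.2 CPM in HOXA9_KO, at 97.6, 94.5 and 102.3 CPM in SAFB_KO and at 75.3, 77.2 and 81.6 CPM in NT. It rose by 0.25 ± 0.04 (adjusted p 8.2e-07) in HOXA9_KO and by 0.33 ± 0.04 (adjusted p 3.3e-09) in SAFB_KO. PDIA6 parted the 2 knockouts, at 120.8, 121.4 and 126.0 CPM in HOXA9_KO, 148.4, 150 and 152.4 CPM in SAFB_KO and 130.4, 131.2 and 130.8 CPM in NT. It rose by 0.20 ± 0.03 (adjusted p 3.9e-06) in SAFB_KO and fell by 0.09 ± 0.03 (adjusted p 0.0210) in HOXA9_KO. The fall did not hold with RLE factors (adjusted p 0.172), DESeq2 (0.174), no filter (0.0619), only the 2 groups compared (0.179) or all 17 libraries in 1 fit (0.253). It was also lost without NT replicate 2 (0.0551), HOXA9_KO replicate 1 (0.0987), HOXA9_KO replicate 2 (0.0953) or SAFB_KO replicate 3 (0.0651). Of the exon bases of PDIA6, 25.2% lie opposite exons of ATP6V1C2, and reads of the pair cannot be told apart unless strand was used in counting. The same holds for 9.95% of the exon bases of CALR, 6.45% of DNAJB9 and 4.81% of HSP90B1.

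HERPUD1 (chr16:56932048-56944863, plus strand), an ER membrane protein of the pathway that degrades misfolded protein, did not join the chaperones. It lay at 28.6, 29.3 and 29.5 CPM in HOXA9_KO, at 25.1, 24.2 and 24.6 CPM in SAFB_KO and at 28.8, 28.3 and 25.9 CPM in NT. HOXA9_KO overlapped NT (0.07 ± 0.06, adjusted p 0.282), and SAFB_KO lay below it, with a fall by 0.17 ± 0.06 (adjusted p 0.0178). The SAFB_KO call was lost without NT replicate 1 (adjusted p 0.104), NT replicate 2 (0.0710) or SAFB_KO replicate 2 (0.0781).

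In MEIS1_KO, 1 of the 10 genes was higher, XBP1 was lower and 8 did not pass, beside 4.97% of 15744 tested genes called higher and 3.84% lower (8.81% either way). HSP90B1 lay at 505.3, 489.1, 485.8 and 455.0 CPM in MEIS1_KO and at 411.1, 441.2, 396.5 and 395.7 CPM in NT_MEIS1ex, without overlap, and rose by 0.23 ± 0.05 (adjusted p 0.00588). HSPA5 lay at 422.7, 446.4, 440.3 and 446.4 CPM in MEIS1_KO and at 449.9, 415.4, 418.4 and 458.4 CPM in NT_MEIS1ex. Its groups overlapped fully, with a log2 fold change of 0.01 ± 0.05 (adjusted p 0.919). The other 7 overlapped between groups too, with log2 fold changes between −0.20 for SDF2L1 and 0.10 for CALR and adjusted p of at least 0.255. With the SD taken as a share of the mean, SDF2L1 was the most variable of the 10 in MEIS1_KO (21%). In NT_MEIS1ex DNAJB9 was the most variable (17.7%), followed by SDF2L1 (16.9%). SDF2L1 lay at 20.4, 24.8, 25.9 and 33.6 CPM in MEIS1_KO and at 37.3, 28.7, 25.6 and 28.2 CPM in NT_MEIS1ex. XBP1 was lower at every alternative setting tried for this comparison, with log2 fold changes between −0.57 and −0.50.

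**Figure D2:**
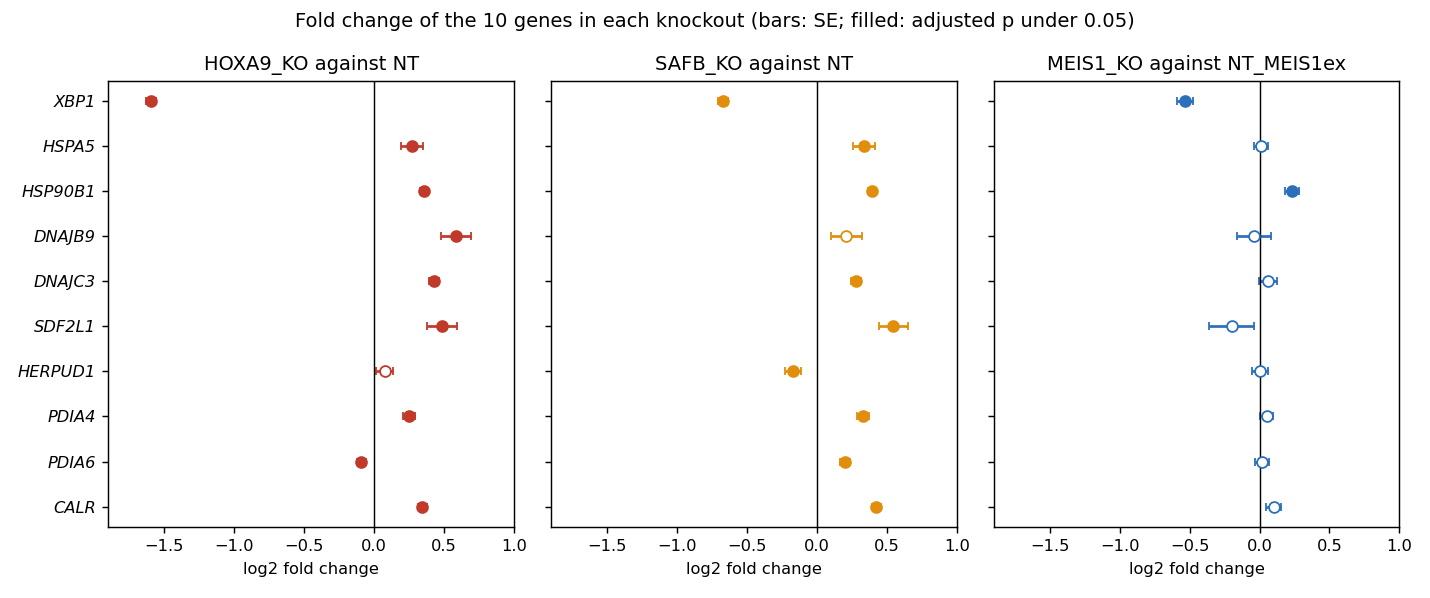
Log2 fold change (horizontal axis, the same range in each panel) of the 10 genes in HOXA9_KO, SAFB_KO and MEIS1_KO against the non-targeting libraries of each experiment, with bars of 1 SE; filled points have an adjusted p under 0.05. XBP1 lies furthest left in each panel, at −1.59, −0.67 and −0.53, and most chaperones lie right of 0 in the first 2 panels and around 0 in the third.

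Set directly against each other, HOXA9_KO and SAFB_KO differed in 6 of the 10 genes, with 3 higher and 3 lower in HOXA9_KO, beside 20.1% of tested genes called higher and 20.5% lower (40.6% either way). DNAJB9 (0.37 ± 0.11, adjusted p 0.00538), HERPUD1 (0.24 ± 0.06, adjusted p 7.6e-04) and DNAJC3 (0.15 ± 0.03, adjusted p 3.5e-04) were higher in HOXA9_KO. XBP1, PDIA6 (−0.29 ± 0.03, adjusted p 7.3e-10) and CALR (−0.08 ± 0.03, adjusted p 0.0360) were lower. The CALR call did not survive RLE factors, DESeq2, limma-voom, leaving out mitochondrial genes, all 17 libraries in 1 fit or the loss of any of 5 libraries (HOXA9_KO replicates 1, 2 and 3, SAFB_KO replicates 1 and 3), with adjusted p between 0.0582 and 0.535. HSPA5, HSP90B1, SDF2L1 and PDIA4 did not pass, with log2 fold changes between −0.08 and −0.04. With protein-coding scaling none of the 3 higher calls held, at 0.26 for DNAJB9 (adjusted p 0.0551), 0.13 for HERPUD1 (adjusted p 0.0694) and 0.04 for DNAJC3 (adjusted p 0.395). XBP1, PDIA6, CALR, HSP90B1 (−0.15) and PDIA4 (−0.19) were then called lower, and PDIA4 also with the filter at 20 CPM (−0.10, adjusted p 0.0353).

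With TMM scaling, most chaperone changes of the first experiment lay above those of MEIS1_KO. Genes of at least 20 CPM had a median difference of 0.155 for HOXA9 minus MEIS1 and 0.114 for SAFB minus MEIS1. Relative to these medians, HSP90B1 was at 0.008 and 0.05, PDIA4 at 0.09 and 0.17, and CALR at 0.13 and 0.22. SDF2L1 was at 0.58 and 0.64, and HERPUD1 at −0.04 and −0.28. Of the 10 genes, 7 had a higher HOXA9 effect than MEIS1 effect and XBP1 a lower one, beside 24.5% of 18836 tested genes called higher and 19.7% lower (44.2% either way). For the SAFB effect minus the MEIS1 effect, edgeR called 6 higher and 0 lower, beside 12.4% and 8.49% of genes (20.9% either way); at an unadjusted p under 0.05 it was 7 and 0, as by DESeq2 and limma-voom. The count of higher genes was 3 without NT replicate 2 or SAFB_KO replicate 3, and 4 without NT replicate 3, SAFB_KO replicate 1 or MEIS1_KO replicate 3. SDF2L1 had the largest value in each (0.73 ± 0.24, adjusted p 0.0207, and 0.76 ± 0.23, adjusted p 0.0329). HSPA5 had 0.30 ± 0.08 (adjusted p 0.00284) and 0.33 ± 0.08 (adjusted p 0.00308), and PDIA4 had 0.24 ± 0.07 (adjusted p 0.00464) and 0.29 ± 0.07 (adjusted p 0.00267). With scaling to protein-coding counts edgeR called none of the 10 higher in either difference. The HOXA9 differences of HSPA5, HSP90B1, HERPUD1, PDIA4 and CALR then turned negative. Called lower were HSP90B1 (−0.16, adjusted p 0.0408), HERPUD1 (−0.21, adjusted p 0.0281), PDIA6 (−0.39, adjusted p 1.67e-06) and XBP1.

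How far the chaperones rose depended on the scaling. With scaling to nuclear protein-coding counts alone, the median log2 fold change of all tested genes moved from −0.07 to −0.32 in HOXA9_KO and from −0.02 to −0.16 in SAFB_KO. The share of called genes that were higher was then 23.7% in place of 48.0% in HOXA9_KO, and 23.7% in place of 56.9% in SAFB_KO. XBP1 stayed lower, by 1.84 in HOXA9_KO and 0.81 in SAFB_KO on the log2 scale. In HOXA9_KO the number of higher genes fell to 4, these being HSP90B1 (0.10), DNAJB9 (0.33), DNAJC3 (0.18) and CALR (0.09), while HSPA5 (0.02, adjusted p 0.876) and SDF2L1 (0.24, adjusted p 0.0511) did not pass. PDIA4 turned to −0.00 (adjusted p 0.975), HERPUD1 to −0.18 (adjusted p 0.00695) and PDIA6 to −0.34. In SAFB_KO, HSPA5 (0.20, adjusted p 0.0805) and PDIA6 (0.06, adjusted p 0.136) lost their call, and HSP90B1, DNAJC3, SDF2L1, PDIA4 and CALR kept it. Relative to the median of genes with at least 20 CPM, which moves with the scaling, TMM values were −1.69 for XBP1, 0.17 for HSPA5, 0.26 for HSP90B1, 0.48 for DNAJB9, 0.33 for DNAJC3, 0.39 for SDF2L1, −0.02 for HERPUD1, 0.15 for PDIA4, −0.19 for PDIA6 and 0.25 for CALR in HOXA9_KO. In SAFB_KO they were −0.76 for XBP1, 0.25 for HSPA5, 0.31 for HSP90B1, 0.12 for DNAJB9, 0.19 for DNAJC3, 0.46 for SDF2L1, −0.26 for HERPUD1, 0.24 for PDIA4, 0.11 for PDIA6 and 0.34 for CALR.

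**Figure D3:**
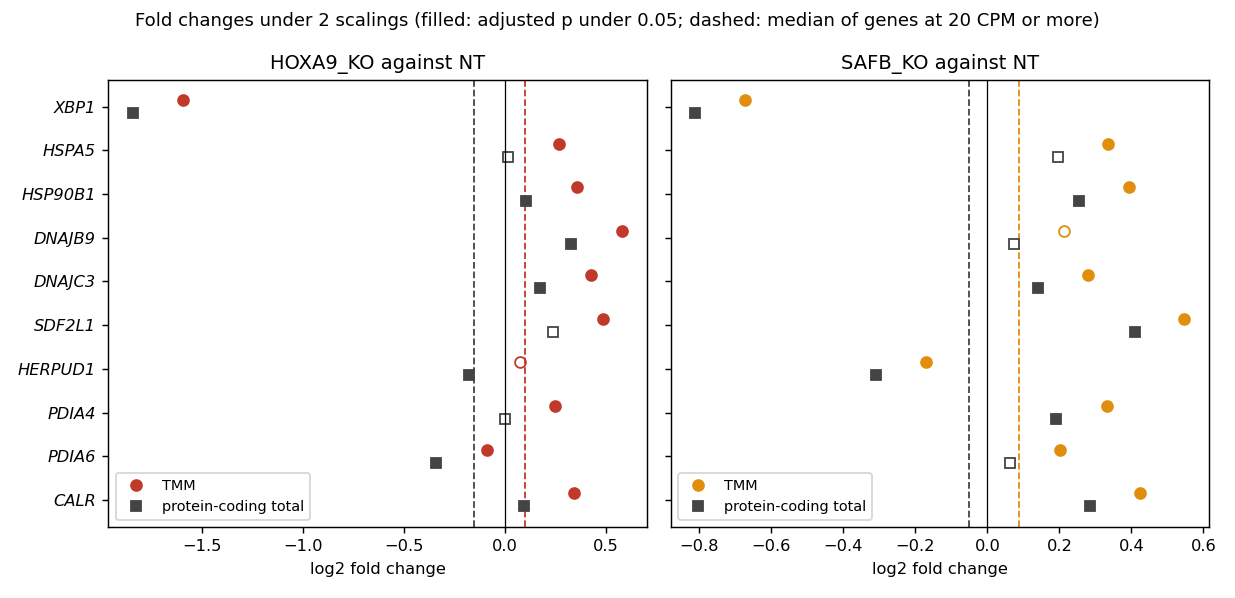
Log2 fold change (horizontal axis, with a different range in each panel) of the 10 genes in HOXA9_KO and SAFB_KO against NT under TMM scaling (circles) and scaling to nuclear protein-coding counts (squares); filled marks have an adjusted p under 0.05 and dashed lines give the median of genes at 20 CPM or more under each scaling. XBP1 is far left of both dashed lines, and the chaperones shift left together by the change of scaling while most stay right of the dashed line of the same shade.

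Per kilobase of exon, CALR was the most abundant of the 10 in every group, at 348 ± 3.90 CPM in HOXA9_KO, 368 ± 9.98 in SAFB_KO and 274 ± 13.9 in NT (SD, n = 3 each). DNAJB9 was the least abundant in every group, at 2.87 ± 0.16 CPM per kilobase in HOXA9_KO and 1.92 ± 0.08 in NT. XBP1 changed its place in this order, being the seventh in HOXA9_KO (25.8 ± 0.80), the third in SAFB_KO (48.9 ± 2.13) and the second in NT (77.9 ± 0.67). In MEIS1_KO it was the fourth (86.8 ± 4.64), below HSPA5 (112 ± 2.88) and HSP90B1 (103 ± 4.48), and in NT_MEIS1ex the second (126 ± 8.17; SD, n = 4 each). XBP1 RNA was thus 0.666 times that of HSPA5 per kilobase in HOXA9_KO and 2.42 times in NT. In MEIS1_KO the ratio was 0.773, against 1.13 in NT_MEIS1ex.

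Other genes of ER folding, transport and clearance were examined through 6 lists that do not hold the 10 genes. They covered the sensors and transducers of the response, other ER chaperones and disulphide isomerases, ER-associated degradation, the translocon, vesicles between ER and Golgi, and N-glycosylation. Of their 95 tested genes, 59 were higher, 8 lower and 28 neither in HOXA9_KO (median 0.17), and 59 were higher, 3 lower and 33 neither in SAFB_KO (median 0.17), where 27.6% and 20.2% of all tested genes were called higher and 29.9% and 15.3% lower. The median of all tested genes of at least 20 CPM was itself 0.098 in HOXA9_KO and 0.088 in SAFB_KO. In MEIS1_KO, 2 were higher, 1 was lower and 92 were neither (median −0.02), and the fits that left out 1 library gave 0 to 3 higher and 1 to 4 lower. With protein-coding scaling the counts turned to 26 higher and 42 lower in HOXA9_KO (median −0.08) and to 30 higher and 11 lower in SAFB_KO (median 0.03). Over all tested genes that scaling gave 2870 higher and 9267 lower in HOXA9_KO and 1715 higher and 5533 lower in SAFB_KO.

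The ER chaperones and isomerases outside the 10 had 13 of 18 genes higher and 2 lower in HOXA9_KO and 12 higher in SAFB_KO. With protein-coding scaling these counts were 7 higher and 6 lower in HOXA9_KO and 9 higher and 2 lower in SAFB_KO. P4HB, the best known disulphide isomerase, rose by 1.01 ± 0.03 (adjusted p 1.4e-32) in HOXA9_KO and by 0.54 ± 0.03 (adjusted p 1.1e-20) in SAFB_KO. HYOU1, a large Hsp70-like chaperone of the ER, rose by 0.70 ± 0.04 and 0.48 ± 0.04, and the isomerase PDIA3 by 0.51 ± 0.03 and 0.45 ± 0.03. With protein-coding scaling these genes remained higher, at 0.76, 0.44 and 0.26 in HOXA9_KO for P4HB, HYOU1 and PDIA3. In ER-associated degradation, 11 of 16 genes were higher in HOXA9_KO and 9 in SAFB_KO, and with protein-coding scaling 5 were higher and 5 lower in HOXA9_KO and 4 higher and 1 lower in SAFB_KO. OS9, a lectin that recognises misfolded glycoproteins, rose by 0.74 ± 0.03 (adjusted p 2.9e-25) in HOXA9_KO, by 0.31 ± 0.03 (adjusted p 8.7e-11) in SAFB_KO and by 0.17 ± 0.05 (adjusted p 0.0429) in MEIS1_KO. Of the 8 fits of MEIS1_KO that left out a library, 5 called no gene of this list higher. Of the translocon genes, 9 of 17 were higher in HOXA9_KO and 13 in SAFB_KO, against 7 higher and 9 lower in HOXA9_KO and 5 higher in SAFB_KO with protein-coding scaling, led by the signal peptidase subunit SEC11A (0.83 ± 0.04 and 0.44 ± 0.04). Of 16 genes of vesicles between ER and Golgi, 10 were higher and 1 lower in HOXA9_KO and in SAFB_KO, against 3 and 9 in HOXA9_KO and 6 and 3 in SAFB_KO with protein-coding scaling. Of 16 N-glycosylation genes, 11 were higher and 2 lower in HOXA9_KO and 11 higher in SAFB_KO, against 3 higher and 6 lower in HOXA9_KO and 5 higher and 2 lower in SAFB_KO with protein-coding scaling. The COPII coat gene SEC23B rose by 0.65 ± 0.03 in HOXA9_KO and by 0.42 ± 0.03 in SAFB_KO.

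**Figure D4:**
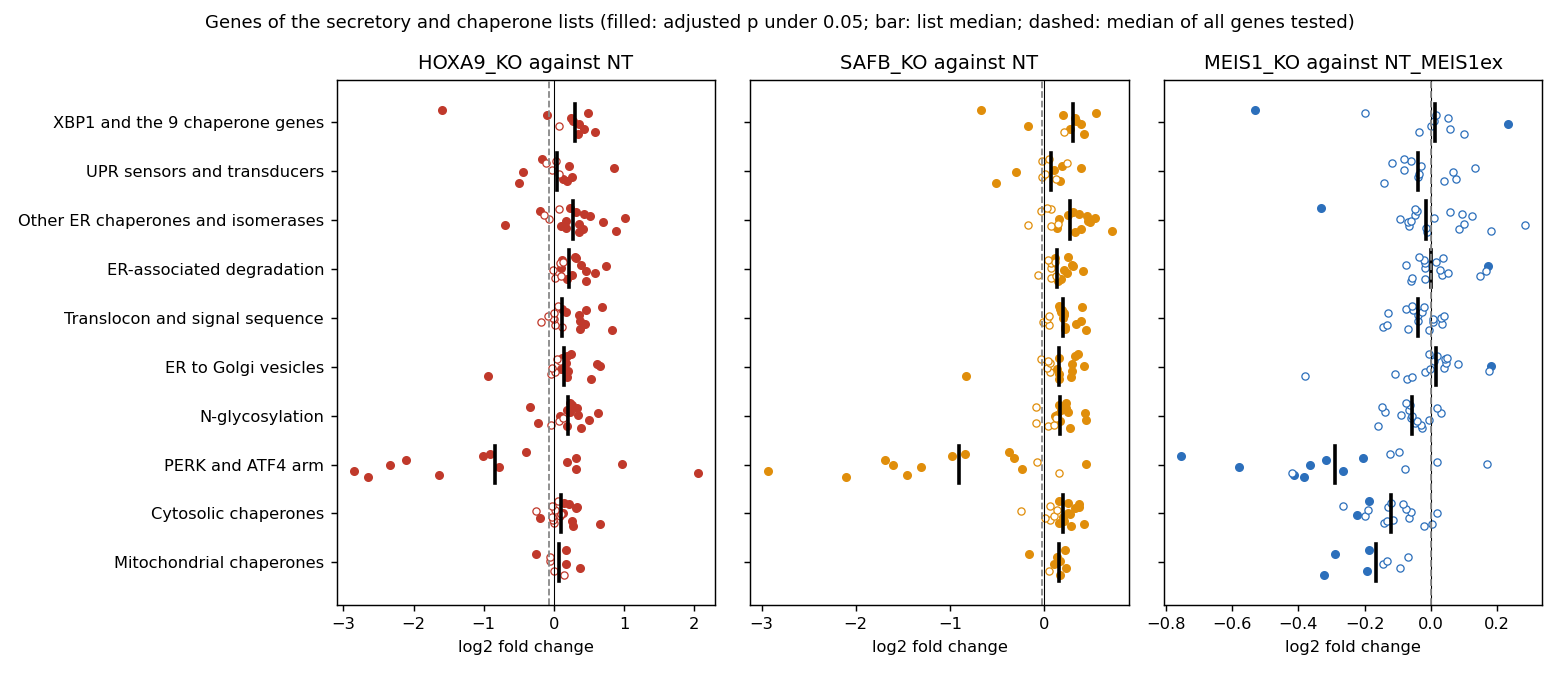
Log2 fold change (horizontal axis, with a different range in each panel) of each tested gene of 10 lists in HOXA9_KO, SAFB_KO and MEIS1_KO, with filled points at an adjusted p under 0.05, a black bar at the list median and a dashed line at the median of all tested genes. XBP1 is the point far left in the top line of each panel, the ER lists lie mostly right of the dashed line in the first 2 panels, and the PERK and ATF4 list has its median left of 0 in all 3, at −0.84, −0.90 and −0.29.

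Of the 12 sensors and transducers, 5 were higher and 3 lower in HOXA9_KO and 4 higher and 2 lower in SAFB_KO. Of all tested genes, 27.6% were called higher and 29.9% lower in HOXA9_KO, and 20.2% and 15.3% in SAFB_KO. With protein-coding scaling the list had 1 higher and 7 lower in HOXA9_KO, and 1 and 3 in SAFB_KO. Over all tested genes that scaling gave 2870 higher and 9267 lower in HOXA9_KO, and 1715 and 5533 in SAFB_KO. ERN1, the IRE1 enzyme that splices XBP1 mRNA, averaged 35.9 ± 0.63 CPM in HOXA9_KO, 26.3 ± 1.89 in SAFB_KO and 19.9 ± 0.40 in NT (SD, n = 3 each). It rose by 0.85 ± 0.06 (adjusted p 1.1e-17) in HOXA9_KO and by 0.40 ± 0.06 (adjusted p 4.1e-07) in SAFB_KO, and it stayed higher with protein-coding scaling (0.60 and 0.26). In MEIS1_KO it averaged 34.9 ± 1.995 CPM against 31.8 ± 0.93 CPM in NT_MEIS1ex (SD, n = 4 each), a change of 0.13 ± 0.06 that did not pass (adjusted p 0.176). EIF2AK3, which codes for PERK, fell by 0.44 ± 0.10 (adjusted p 9.0e-05) in HOXA9_KO and by 0.30 ± 0.09 (adjusted p 0.00936) in SAFB_KO. ATF6 rose by 0.19 ± 0.03 (adjusted p 5.6e-06) in HOXA9_KO, which turned to −0.06 with protein-coding scaling, and by 0.17 ± 0.03 (adjusted p 5.1e-05) in SAFB_KO, where 0.04 remained. Neither EIF2AK3 (0.07 ± 0.09) nor ATF6 (0.04 ± 0.06) passed in MEIS1_KO.

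The genes of the PERK and ATF4 arm were mostly lower, but not all. Of its 14 genes, 5 were higher and 9 lower in HOXA9_KO, 1 higher and 11 lower in SAFB_KO, and 8 lower in MEIS1_KO. Beside this and the next 2 lists, 27.6% of all tested genes were called higher and 29.9% lower in HOXA9_KO. These shares were 20.2% and 15.3% in SAFB_KO and 4.97% and 3.84% in MEIS1_KO. ASNS, asparagine synthetase, fell by 2.65 ± 0.07, 2.10 ± 0.06 and 0.38 ± 0.06 in HOXA9_KO, SAFB_KO and MEIS1_KO, while CEBPB rose by 2.05 ± 0.10 (adjusted p 1.6e-23) in HOXA9_KO. In the cytosol, 8 of 18 chaperone genes were higher and 1 lower in HOXA9_KO and 12 higher in SAFB_KO, but with protein-coding scaling 2 were higher and 11 lower in HOXA9_KO and 8 higher and 2 lower in SAFB_KO. HSPA8, the constitutive cytosolic Hsp70, rose by 0.34 ± 0.03 in HOXA9_KO and by 0.38 ± 0.03 in SAFB_KO, values close to those of HSP90B1 and CALR. In MEIS1_KO 2 of 17 cytosolic chaperone genes were lower, with 5 lower without NT_MEIS1ex replicate 2, 3 without NT_MEIS1ex replicate 1, and 1 without MEIS1_KO replicate 1 or 3. Of 8 mitochondrial chaperone genes, 3 were higher and 1 lower in HOXA9_KO (1 and 5 with protein-coding scaling). In SAFB_KO 6 were higher and 1 lower (0 and 1 with that scaling). In MEIS1_KO 4 were lower, with 2 lower without MEIS1_KO replicate 3 and 6 without NT_MEIS1ex replicate 1. Over all tested genes, protein-coding scaling gave 2870 higher and 9267 lower in HOXA9_KO and 1715 and 5533 in SAFB_KO.

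Markers of differentiation were higher in the knockouts in which XBP1 was lower. Of 8 markers of differentiated monocytes or macrophages, 7 were tested and all 7 were higher in HOXA9_KO and in SAFB_KO, and 5 in MEIS1_KO. Among all tested genes the share called higher was 27.6% in HOXA9_KO, 20.2% in SAFB_KO and 4.97% in MEIS1_KO. The summed level of the list was 1196 to 1212 CPM in HOXA9_KO, 685 to 703 in SAFB_KO and 276 to 286 in NT, and 411 to 455 CPM in MEIS1_KO against 226 to 311 CPM in NT_MEIS1ex. None of the 7 tested markers was at 0, and CD14 averaged 2.78 CPM in HOXA9_KO against 0.114 CPM in NT. Of 8 markers of the myeloid line, all were detected, with 7 higher and 1 lower in HOXA9_KO, 5 higher and 2 lower in SAFB_KO and 5 higher in MEIS1_KO. Their sum averaged 31170, 14170 and 5502 CPM in HOXA9_KO, SAFB_KO and NT, most of it LYZ at 29670, 12810 and 4149 CPM, while FLT3 was lower in both knockouts, at 321 and 547 CPM against 674 CPM in NT. XBP1 is high in plasma cells, and of 9 lymphoid and plasma cell markers CD3E was at 0 in all HOXA9_KO, NT and NT_MEIS1ex libraries, MS4A1 averaged at most 0.0497 CPM and JCHAIN at most 0.125 CPM in any group. Their sum was 12.2 to 13.9 CPM in HOXA9_KO, 10.5 to 12.4 in SAFB_KO and 10.02 to 12.2 in NT, and 13.2 to 16.7 CPM in MEIS1_KO against 9.555 to 11.5 CPM in NT_MEIS1ex, where the groups did not overlap. Nearly all of it was PRDM1, which was higher in HOXA9_KO (0.31 ± 0.09) and in MEIS1_KO (0.51 ± 0.10), and MZB1 was lower in HOXA9_KO and SAFB_KO, at 0.0608 and 0.137 CPM against 0.492 CPM in NT. Erythroid and megakaryocyte markers summed to at most 3.87 CPM in any library, with PF4 at 0 in all 17. Interferon-response genes, a list added after the values were seen, summed to 56.2 to 66.0 CPM in HOXA9_KO and 106 to 120 in SAFB_KO, but to 558 to 794 CPM in the NT libraries. In the second experiment this sum was 113 to 188 CPM in MEIS1_KO and 76.7 to 116 CPM in NT_MEIS1ex, so NT had the highest sum of all groups. Reads outside annotated genes made up 9.02% in HOXA9_KO and 11.6% in SAFB_KO, against 17.04% in NT. They made up 8.25% in MEIS1_KO and 7.30% in NT_MEIS1ex. The part of these in the results was not tested.

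Among 7192 genes of at least 20 CPM, the 5 with a pattern over the 17 libraries most like that of XBP1 were the histone genes H2BC8 (Pearson r 0.988) and H2AC8 (0.987), the Notch ligand JAG1 (0.986), the histone variant H2AZ1 (0.982) and the serine protease PRSS57 (0.981). Each library was taken as its difference from the non-targeting mean of its experiment, on log2(CPM + 1). The libraries form 5 groups and share controls within an experiment, so r mostly follows the group means. H2BC8 averaged 25.1 CPM in HOXA9_KO, 39.2 in SAFB_KO and 56.4 in NT, and 55.3 CPM in MEIS1_KO against 70.7 CPM in NT_MEIS1ex, so its order within each experiment was that of XBP1. Within the 10 genes, r with XBP1 was −0.88 for DNAJC3, −0.81 for HSP90B1, −0.73 for CALR and 0.22 for PDIA6. Counted from the highest r, these held ranks 6182, 5591, 5050 and 2396 of 7192, so many other genes had a more negative r. For HSPA5 the most like genes included COMMD6 (0.941), UBL5 (0.923), MRM2 (0.922) and ATP5PF (0.921), and its r was 0.87 with PDIA4 and 0.84 with CALR. PDIA4 and CALR were the most alike pair of the 10, at 0.98.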

How the data were processed

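Total RNA of MOLM13 cells was depleted of rRNA, made into directional libraries and read as paired 150-base reads, per the labels' protocols. Each deposited file holds whole-number counts of reads per gene for 1 library, and HTSeq 1.99.2, STAR 2.7.10a, bedtools, Trim Galore and the hg38 build are listed without roles, per the submitters' processing notes. The strand setting and annotation release were not given in the sources used here; gene names and positions were taken from GENCODE 29 and promoters from RefSeq. From these counts, edgeR 4.0.16 (R 4.3.3) gave TMM factors, filterByExpr filtering (10 counts, 15 in total) and quasi-likelihood tests with Benjamini-Hochberg adjustment over all tested genes. The HOXA9_KO, SAFB_KO and NT libraries shared 1 fit, the MEIS1 experiment had its own, and differences between effects came from all 17 libraries. Genes with an adjusted p under 0.05 were called. The code was tested on simulated data. Alternatives were RLE factors, no filter, filters at 2 or 20 CPM, DESeq2 1.42.0, limma-voom (limma 3.58.1), mitochondrial genes left out, protein-coding scaling, other sets of libraries, a replicate block and leaving out each library. All 10 genes are named in every comparison; of each list, up to 3 called genes with the smallest p in a comparison could be named, and ERN1, ATF6 and EIF2AK3 always. The 10 genes and the lists were chosen with earlier results of these data known, and the interferon list and the fit without mitochondrial genes were added after the values were seen. Of the genes these rules name, 1 among those most like HSPA5 and 1 marker are not reported here.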

Additional observations from a re-analysis of the deposited data

Results flagged for a closer look

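CALR in NT_MEIS1ex replicate 3 stood apart at 807 CPM, below the other 3 libraries of the group at 934.6 to 941.1 CPM. It was the only gap past Dixon's limit among 20 groups of 4 libraries tested, and chance flags about 1 in 20.

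The HOXA9 effect minus the MEIS1 effect passed the test for 8 genes, with log2 differences of −1.02 for XBP1, 0.30 for HSPA5, 0.16 for HSP90B1, 0.66 for DNAJB9, 0.41 for DNAJC3, 0.73 for SDF2L1, 0.24 for PDIA4 and 0.29 for CALR. HSP90B1 kept this call in 15 of 25 alternative settings. The SAFB effect minus the MEIS1 effect passed for 6 genes, at 0.33 for HSPA5, 0.23 for DNAJC3, 0.76 for SDF2L1, 0.29 for PDIA4, 0.19 for PDIA6 and 0.33 for CALR. Here SDF2L1 kept its call in 15 of 24 alternative settings, DNAJC3 in 16 of 25 and PDIA6 in 17 of 25. HSPA5, PDIA4 and CALR each kept it in 24 of 25. Both use the same MEIS1 and NT libraries. The experiments also differ in mitochondrial rRNA, whose part in these values was not tested.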

How the results depend on the processing

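XBP1 stayed lower and called at every setting tried in HOXA9_KO, SAFB_KO, MEIS1_KO and HOXA9_KO against SAFB_KO. Over the 10 genes and all comparisons, 1128 of 1259 alternative values kept their direction and side of the threshold. With the sign kept, 82 lost and 22 gained a call. A further 27 changed sign, and some of these also lost or gained a call. The cause was not tested. In HOXA9_KO against NT, 1 of the 10 was lower with RLE factors, no filter, DESeq2, only the 2 groups, or all 17 libraries, and 4 were higher with protein-coding scaling. At 20 CPM, where DNAJB9 and SDF2L1 were not tested in any comparison with HOXA9_KO or SAFB_KO, 4 of the other 8 were higher. Genes called higher and lower numbered 2501 and 2584 at 20 CPM and 2870 and 9267 with protein-coding scaling. In SAFB_KO against NT they were 1721 and 1725, and 1715 and 5533. In MEIS1_KO, 1165 genes were lower in the fit of all 17. In HOXA9_KO against SAFB_KO, genes were 2140 and 2179 at 20 CPM, and with protein-coding scaling 2452 and 5840, with 0 of the 10 higher and 5 lower. For the HOXA9 minus MEIS1 effect, 2 of the 10 were lower at 2 CPM, 1 higher and 2 lower at 20 CPM (genes 2175 and 2186), and 0 and 4 with protein-coding scaling (1861 and 7799). For the SAFB minus MEIS1 effect, 2 of the 10 were lower at each of these settings, with 3 higher at 20 CPM and 0 with protein-coding scaling; genes higher were 1423 at 2 CPM and 896 at 20 CPM, and with protein-coding scaling 606 were higher and 3492 lower.

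Without 1 library, higher and lower counts among the 10 were 6 to 7 and 1 to 2 in HOXA9_KO and in SAFB_KO, 1 and 1 in MEIS1_KO, 3 and 2 to 3 in HOXA9_KO against SAFB_KO, 5 to 7 and 1 for the HOXA9 minus MEIS1 effect, and 3 to 7 and 0 to 1 for the SAFB minus MEIS1 effect. Over all genes, higher and lower ranged 4940 to 5382 and 5057 to 5682 in HOXA9_KO, 3290 to 3886 and 2254 to 2939 in SAFB_KO, 487 to 944 and 264 to 828 in MEIS1_KO, and 3383 to 3891 and 3305 to 3930 in HOXA9_KO against SAFB_KO. For the 2 differences they were 4258 to 4679 and 3325 to 3670, and 1857 to 2601 and 1184 to 1669.

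Signs changed in HOXA9_KO for HERPUD1 (−0.031 at 20 CPM, −0.18 with protein-coding scaling) and PDIA4 (−0.0016 with protein-coding scaling). In MEIS1_KO, HERPUD1 was −0.0013 with RLE factors or DESeq2, −0.0081 with no filter and −0.016 with all 17 libraries, where HSPA5 was −0.0061. Leaving out 1 library there gave ranges across 0, with HERPUD1 −0.033 to 0.037, DNAJB9 −0.148 to 0.057, HSPA5 −0.012 to 0.039, DNAJC3 −0.012 to 0.109 and PDIA6 −0.012 to 0.055. For the HOXA9 minus MEIS1 effect, HERPUD1 was −0.042 at 20 CPM, and protein-coding scaling gave HSPA5 −0.02, HSP90B1 −0.16, HERPUD1 −0.21, PDIA4 −0.080 and CALR −0.035; for the SAFB minus MEIS1 effect it gave HSP90B1 −0.0064.

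Replicate numbers are not stated to pair the libraries. As deviations from group means, same-numbered libraries correlated at −0.022 to 0.054 in the first experiment and −0.230 to 0.0925 in the second. Libraries with different numbers correlated at −0.051 to 0.036 and −0.169 to 0.207. With so few libraries in a group, these ranges cannot decide whether the libraries were paired. With the replicate block, HSP90B1 gained (adjusted p 0.0414, edgeR) and SDF2L1 lost (0.0699) a call for the SAFB minus MEIS1 effect.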

Other observations

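In CPM, the non-targeting libraries of the 2 experiments differed in these genes, although both are MOLM13. As a share of its NT_MEIS1ex mean, the NT mean was 18.5% for SDF2L1, 28.8% for HSPA5, 30.9% for HERPUD1 and 53.1% for PDIA4, but 80.8% for HSP90B1, 82.3% for CALR and 95.6% for DNAJC3. XBP1 was at 62.0%. These shares are not levels on a common scale, since CPM counts all assigned reads and the TMM factors came from separate fits. Nuclear protein-coding genes took 70.9% of assigned reads in NT and 94.3% in NT_MEIS1ex. Mitochondrial rRNA took 25.1% in NT and 0.000517% in NT_MEIS1ex. The part of these differences in the levels was not tested.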
